A study of Mus musculus with 4 samples.

Results

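The CCT chaperonin, also called TRiC, is built from 8 related subunits encoded by Tcp1, Cct2, Cct3, Cct4, Cct5, Cct6a, Cct7 and Cct8. The members were taken by gene symbol, and all 8 symbols were found among the 24411 genes listed in the files. The data are RNA-seq levels from ICR mouse morulae, an outbred stock, in 4 libraries. Embryos were made by in vitro fertilization and electroporated with siRNA as 1-cell embryos at 3 hpi. They were then cultured in KSOM with bovine serum albumin until 72 hpi. The siControl group received control siRNA and the siPwp1 group siRNA against Pwp1, with 2 libraries in each and 10 pooled morulae per library, so each value averages over embryos that took up more or less siRNA. All libraries share the electroporation, the culture and the strain. The labels do not say whether replicates were separate cultures, so every p-value reflects the spread between libraries, which may be technical.

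CCT is a cytosolic chaperonin of stacked rings. Each ring holds 1 copy of each subunit in a fixed order, and folding is driven by ATP binding and hydrolysis in the subunits. Actin and tubulin are its best-known clients, and many WD-repeat proteins, which fold into ring-shaped propellers, also depend on it. Prefoldin hands it unfolded actin and tubulin, and phosducin-like proteins act as its co-chaperones. Because the ring needs the subunits in equal number, the proportions of their transcripts are of interest. From work in yeast, Tcp1, Cct2, Cct4 and Cct5 are known as the subunits that bind ATP with high affinity, and Cct3, Cct6a, Cct7 and Cct8 as those of low affinity. Levels are given by these classes.

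The 4 libraries held 28981358 to 48765229 expected counts and between 15149 and 15976 genes with a count above 0. The lowest expected count of any subunit in any library was 10381, and the counting error (SD of a Poisson count) of each subunit's lowest count was 0.622% to 0.981%, counting error alone being covered. Pwp1, the targeted gene, was measured in CPM, the expected counts per library size scaled by TMM. It had 215.4 CPM in siControl replicate 1, 364.9 in siControl replicate 2, and 36.9 and 37.2 in the siPwp1 pair. The siPwp1 libraries lay below both siControl libraries, at 0.128 of the siControl level (log2 fold change -2.97, SE 0.333, edgeR adjusted p = 0.2204 over all genes). All 11 morula and early lineage markers were tested, with summed levels of 1324, 609.6, 775.7 and 578.2 CPM in siControl replicates 1 and 2 and siPwp1 replicates 1 and 2. Of 8 cumulus and granulosa markers 0 passed the filter on low counts, and their sum was 0.0332 to 0.356 CPM, with Ptx3 and Cyp19a1 listed at 0 in each library. The summed sperm and spermatid markers stood at 0 to 1.21 CPM, the oocyte markers at 5.14 to 21.7 CPM and the blood and immune markers at 12.3 to 44.7 CPM, with the globin genes Hbb-bs and Hbb-bt listed at 0. The blood sum was above the siControl values in both siPwp1 libraries, at 43.96 and 44.7 against 12.3 and 34.8 CPM. Most of it was a single globin gene, Hba-a2, at 39.3 and 39.1 CPM in siPwp1 against 11.3 and 31.7 CPM in siControl. The part of any of these in the results below was not tested.

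The 8 genes lie on 8 different chromosomes (GENCODE M21 on GRCm38, positions from 1). Tcp1 is on chromosome 17 from 12915701 to 12925067, plus strand, and Cct2 on chromosome 10 from 117051001 to 117063814, minus strand. Cct3 is on chromosome 3 from 88297116 to 88321767, plus strand, and Cct4 on chromosome 11 from 22990519 to 23003780, plus strand. Cct5 is on chromosome 15 from 31590800 to 31601804, minus strand, and Cct6a on chromosome 5 from 129786998 to 129846371, plus strand. Cct7 is on chromosome 6 from 85451514 to 85468475, plus strand, and Cct8 on chromosome 16 from 87483326 to 87495873, minus strand. Cct3, Cct5, Cct6a and Cct7 start within 500 bases of the start of a protein-coding gene on the other strand, namely Tsacc, Fam173b, Psph and Pradc1. By GENCODE gene bounds this holds for 4 of the 8 subunit genes and for 8.91% of all 21951 protein-coding genes. Cct6a is typed as a processed transcript there, so it is not among the 21951. The RefSeq start of Tcp1, at 12916329, lies close to the minus-strand start of Mrpl18 at 12916345. The GENCODE bound of Tcp1 lies farther from it than 500 bases, so Tcp1 was not counted. Tcp1 and Cct6a also carry small nucleolar RNA genes inside their bounds, among them Snora20 in Tcp1 and Snora15 in Cct6a.

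How far the subunits can be told apart in short reads was read from the GENCODE M21 transcript sequences. Cct6a has a close paralog, Cct6b, known from testis. Over 1579 aligned bases their transcripts were 74.4% identical, and the longest identical run was 20 bases. The most alike 60 coding bases of the pair are shown because they mark where the 2 genes are hardest to separate, with capitals at the 5 bases that differ.
Cct6a: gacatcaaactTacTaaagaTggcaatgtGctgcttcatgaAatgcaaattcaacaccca
Cct6b: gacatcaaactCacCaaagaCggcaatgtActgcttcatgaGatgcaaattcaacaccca
No window of 50 bases was thus shared between them, and Cct2, Cct5 and Cct6b had 0 such windows in common with any other gene. Cct6b stood at 6.99, 5.58, 6.52 and 1.95 TPM (a level per transcript length and library size) in siControl replicates 1 and 2 and siPwp1 replicates 1 and 2. Its level was thus far below the 223.4 TPM or more of Cct6a in every library.

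Other subunits overlap genes on the opposite strand. Tcp1 shares 571 exonic bases with Acat3 and 141 with the mitochondrial ribosome gene Mrpl18, Cct8 shares 192 with the deubiquitinase gene Usp16, Cct7 shares 214 with Pradc1 and Cct6a shares 452 with Psph. Expected counts that are not whole, which arise when reads are divided between genes, occurred for Tcp1 and Cct8 in 4 libraries and for Cct7 in 3, and for none of the other subunits. Of the windows of 50 bases in the longest transcript, 22.2% in Tcp1, 16.8% in Cct6a, 8.28% in Cct7 and 6.10% in Cct8 matched another gene, against at most 2.13% in the other subunits. Of the overlapping genes, Mrpl18 was about as abundant as Tcp1, at 349.2 to 492.4 TPM, and the others were lower than their subunits. Usp16 stood at 53.6, 98.1, 66.1 and 100.2 TPM, Pradc1 at 32.1 to 45.3 TPM, Psph at 19.3 to 26.4 TPM and Acat3 at 0.29 to 0.95 TPM. Acat2 matched 12.1% of the Tcp1 windows on the opposite strand. It stood at 25.55 and 23.41 TPM in siControl and 44.04 and 28.03 TPM in siPwp1. Counts of Usp16, Acat3 and Acat2, like those of Cct8 and Tcp1, were not whole in any library. Those of Pradc1 were not whole in the same 3 libraries as Cct7. Counts of Cct6a, Psph and Mrpl18 were whole in each library. Whether the counting used strand is not given in the sources used here. In siControl replicate 1 Cct8 had 25819.38 and Usp16 4173.62 expected counts, and Cct7 had 16188.78 and Pradc1 776.22. The fractions of each pair make up a whole count, so reads were divided between these genes of opposite strands. The levels of Tcp1, Cct7 and Cct8 carry the uncertainty of that division. For Cct6a no divided reads were seen, though its exons overlap those of Psph.

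The 250 bases before the RefSeq start sites of Cct2 and Cct8 (GRCm38.p6) are shown. They were chosen because in CPM Cct8 varied most and Cct2 least between the siControl libraries. In TPM Cct6a varied least. Capitals mark the GC box GGGCGG on either strand.
Cct2, chr10:117063853-117064102, minus strand: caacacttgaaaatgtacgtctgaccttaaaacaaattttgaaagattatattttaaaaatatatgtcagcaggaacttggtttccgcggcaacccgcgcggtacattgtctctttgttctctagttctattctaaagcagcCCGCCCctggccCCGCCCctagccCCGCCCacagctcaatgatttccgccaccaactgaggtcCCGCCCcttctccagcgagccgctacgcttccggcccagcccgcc
Cct8, chr16:87495870-87496119, minus strand: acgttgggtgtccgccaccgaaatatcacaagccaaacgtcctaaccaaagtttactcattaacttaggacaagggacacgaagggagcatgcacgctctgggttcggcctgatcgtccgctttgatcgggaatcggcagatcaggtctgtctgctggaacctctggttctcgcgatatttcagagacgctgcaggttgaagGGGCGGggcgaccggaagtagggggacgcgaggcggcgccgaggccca
The Cct2 window shown holds 4 GC boxes and the Cct8 window 1. A second Cct2 window, at an inner start site, also holds 1. The table of promoters held 9 windows for 7 of the 8 genes, Cct4 not among them. The GC box was found in 8 of the 9 windows, belonging to 7 genes, against 32.7% of all 32851 windows of the same length. The GC content was 45.2% in a Cct5 window and 52.8% to 66.8% in the others, against a median of 52.4% over all windows. The part of GC content in the GC box matches was not tested. CCAAT was found in 4 of the 9 windows, against 33.8%, and the heat shock element GAANNTTC in 1, the second Cct2 window, against 6.69%. CCGGAAG, a core bound by ETS factors, was found in 2 windows, those shown for Cct2 and Cct8, against 6.91%. CACGTG, an E box, the palindrome bound by NRF1 and the core bound by YY1 were found in 0 of the 9 windows, against 6.02%, 0.782% and 0.207% of all windows. Both strands were searched, and these matches describe letters only.

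All 8 subunits were abundant transcripts of the morula, and their levels lay within a narrow band. In siControl replicate 1 the ranks of the subunits by TPM ran from 364 to 769 among all genes, and over all libraries from 284 to 773. The highest subunit was 2.37, 2.64, 2.48 and 2.55 times the lowest in siControl replicates 1 and 2 and siPwp1 replicates 1 and 2. The summed level of the 8 was 2785, 3522, 2862 and 2980 TPM in the same order. The group values were 3154 ± 520.9 TPM in siControl and 2921 ± 83.8 TPM in siPwp1 (SD, n = 2). The siPwp1 libraries lay between the siControl libraries, so the groups overlapped. In bulk samples fewer cells of a type and less RNA per cell cannot be told apart.

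Among the subunits of high ATP affinity, Cct5, whose human gene is mutated in a hereditary sensory neuropathy, stood at 488.1 and 602.8 TPM in siControl and 505.8 and 492.95 TPM in siPwp1. Its siPwp1 values lay between the siControl values. Cct4, the delta subunit, which contacts actin, was at 496.1 and 602.8 TPM in siControl and 463.6 and 513.7 TPM in siPwp1. Here siControl replicate 2 was highest and the groups overlapped in TPM. Tcp1, the founding member of the family, named for the t-complex of mouse chromosome 17, was at 359.6 and 466.5 TPM in siControl and 339.3 and 380 TPM in siPwp1. Again siControl replicate 2 stood highest. Cct2, the beta subunit, was at 300.6 and 310 TPM in siControl and 268.8 and 285.9 TPM in siPwp1, with both siPwp1 libraries below both siControl libraries.

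Among the subunits of low affinity, Cct8, the theta subunit, which has been linked to assembly of the complex, was at 413.8 and 682.7 TPM in siControl and 554 and 571.5 TPM in siPwp1. It had the widest siControl pair of the 8, and both siPwp1 values fell inside that pair. Cct7, the eta subunit, was at 252.3 and 327.2 TPM in siControl and 269.1 and 279.7 TPM in siPwp1. Its pattern was like that of Cct8 but narrower. Cct6a, the zeta subunit, was at 265.8 and 271.2 TPM in siControl and 223.4 and 224.3 TPM in siPwp1. Both pairs were tight and did not overlap, with siPwp1 lower. Cct3, the gamma subunit, was at 208.9 and 258.8 TPM in siControl and 237.7 and 232.1 TPM in siPwp1, and the groups overlapped.

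By mean TPM over the 4 libraries the order was Cct8 at 555.5, Cct5 at 522.4, Cct4 at 519.1, Tcp1 at 386.4, Cct2 at 291.3, Cct7 at 282.1, Cct6a at 246.2 and Cct3 at 234.4. The neighbours Cct8, Cct5 and Cct4 changed places between libraries, as did Cct2, Cct7, Cct6a and Cct3. Tcp1 ranked 4 in each of the 4 libraries, below Cct8, Cct5 and Cct4 and above the other four. The order thus falls into an upper set of Cct8, Cct5 and Cct4, then Tcp1, then a lower set. The subunits of high ATP affinity stood above those of low affinity in this order of means, apart from Cct8, which stood first.

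**Figure D1:**
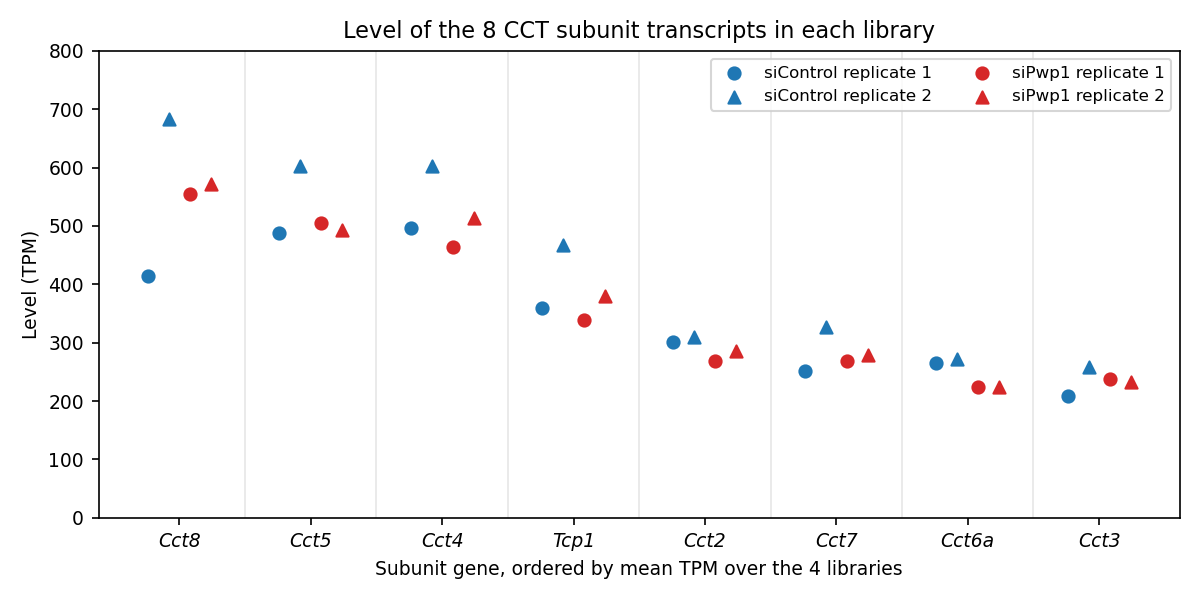
Level of each CCT subunit transcript in TPM (vertical axis) in each of the 4 libraries, blue for siControl and red for siPwp1, circles for replicate 1 and triangles for replicate 2; the genes are ordered by mean TPM. Cct8 spans 413.8 to 682.7 TPM between the siControl libraries, while both Cct6a values of siPwp1 (223.4 and 224.3) lie below those of siControl.

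Proportions within the complex do not depend on scaling between libraries, so each subunit was also expressed as a share of the summed TPM of the 8, where equal transcripts would each take the same share. Cct8, Cct5 and Cct4 together took 50.2%, 53.6%, 53.2% and 52.96% in siControl replicates 1 and 2 and siPwp1 replicates 1 and 2. The share of Cct8 was 14.9% in siControl replicate 1 and 19.4%, 19.4% and 19.2% in the other libraries. This library thus stood apart for Cct8, and it was also the one with the highest summed morula and early lineage markers; the part of that in the share was not tested. Cct6a and Cct2 took larger shares in siControl replicate 1 (9.54% and 10.8%) than elsewhere (7.53% to 7.81% and 8.80% to 9.59%).

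The shares of Cct3 and Cct7 were higher and that of Tcp1 lower in both siPwp1 libraries. Cct3 took 7.50% and 7.35% in siControl and 8.30% and 7.79% in siPwp1. Its mean level was about the same in siControl and siPwp1, at 233.8 and 234.9 TPM, while the mean sum of the 8 was 3154 and 2921 TPM. Tcp1 took 12.9% and 13.2% in siControl and 11.9% and 12.8% in siPwp1. For Cct7 the difference was small, at 9.06% and 9.29% against 9.40% and 9.39%. The mean shares of Cct3 were 7.42 ± 0.108% and 8.05 ± 0.365% (SD, n = 2), a difference of 0.62 percentage points. It was 0.36 points when siPwp1 replicate 1 was left out and 0.88 when siPwp1 replicate 2 was. A two-sided exact permutation test of 2 libraries against 2 cannot go below p = 0.333, so no share can pass a threshold of 0.05. A share that does not differ between groups would separate in either direction with that same probability. The separations are therefore a description.

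**Figure D2:**
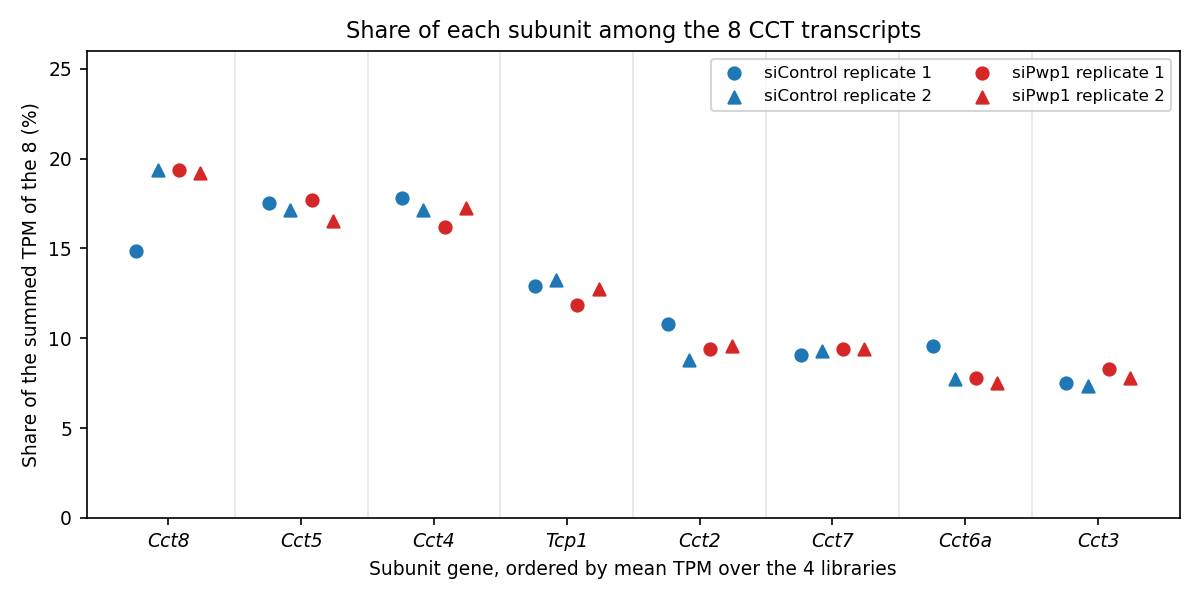
Share of each subunit in the summed TPM of the 8 (vertical axis, percent) in each library, with colours and symbols as in the plot of levels. Cct8 takes 14.9% in siControl replicate 1 and 19.2% to 19.4% in the other libraries, and the share of Cct3 is higher in both siPwp1 libraries.

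The lowest subunit was Cct3 in both siControl libraries and Cct6a in both siPwp1 libraries. The ratio of Cct3 to Cct6a in TPM was 0.786 and 0.954 in siControl and 1.06 and 1.03 in siPwp1. Of the 28 ratios between a pair of subunits, 9 did not overlap between the groups, and 5 of these 9 involved Cct3. Of all 28 pairs, 7 involve Cct3. Among all 234270 pairs of genes averaging 300 CPM or more, 22.3% did not overlap in 1 direction or the other. Pairs that share a subunit are not independent.

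Compared between groups, 0 of the 8 subunits passed edgeR's quasi-likelihood test at an adjusted p of 0.05 over 13585 genes, in either direction. The background is 0% in each direction, since 0 of all genes were called with group as the single term. At an unadjusted p under 0.05 there were 0 subunits, against 362 genes or 2.66% of all. The Wald test of DESeq2 also called 0 subunits, where it called 0.309% of genes higher and 0.0147% lower. Log2 fold changes of siPwp1 minus siControl ran from -0.28 for Cct6a to 0.03 for Cct8, with a median of -0.15 and an SD of 0.105 among the 8, beside a median of -0.001 over all genes tested. Leaving out siControl replicate 1 moved the median of the 8 to -0.24, and leaving out siControl replicate 2 moved it to -0.06.

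In CPM, both siPwp1 libraries lay below both siControl libraries for Tcp1, Cct2, Cct4 and Cct6a, and above them for 0 subunits. Of all genes tested, 14.1% were lower and 14.7% higher without overlap. Of the 685 genes averaging 300 CPM or more, 15.9% were lower and 6.28% higher. In TPM this count was 2 of 8, Cct2 and Cct6a, so for Tcp1 and Cct4 the separation depends on the scale. The shares of all genes above are in CPM, and the share in TPM was not counted.

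Cct6a had the smallest p of the 8. In siControl it had 516.1 and 487.9 CPM, and in siPwp1 421.1 and 406.6 CPM. The group values were 502 ± 20 and 413.9 ± 10.2 CPM (SD, n = 2). The fold was 0.824, with a 95% interval of 0.574 to 1.19 (edgeR adjusted p = 0.9998, as for each of the 8). The difference was larger than the spread within either pair but was not called by the test, which borrows its spread from all genes. Tcp1 was at 899.6 ± 117.5 and 776.4 ± 41.5 CPM, a fold of 0.863 with an interval of 0.596 to 1.25. Cct4 was at 913.9 ± 76.1 and 805.3 ± 36.1 CPM, a fold of 0.881 with an interval of 0.616 to 1.26. Cct2 was at 508.2 ± 16.6 and 456.1 ± 7.21 CPM, a fold of 0.897 with an interval of 0.626 to 1.29.

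The other four overlapped between groups. Cct5 stood at 802.2 ± 75.8 and 728.3 ± 33.6 CPM, Cct7 at 618.5 ± 80.2 and 581.9 ± 0.0961 CPM, and Cct3 at 386.8 ± 37.5 and 385.5 ± 17.1 CPM. Cct8 had siControl values of 896 and 1370 CPM around siPwp1 values of 1165 and 1156 CPM, a fold of 1.02 with a 95% interval of 0.662 to 1.59. Its log2 fold change became -0.24 when siControl replicate 1 was left out and 0.37 when siControl replicate 2 was, so the direction rests on which siControl library is used. Those of Cct7 and Cct3, at -0.09 and -0.005, turned to 0.05 and 0.10 when siControl replicate 2 was left out. Each of the 8 intervals includes a fold of 1, and none shows that the groups are alike, since together they span folds from 0.574 to 1.59.

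**Figure D3:**
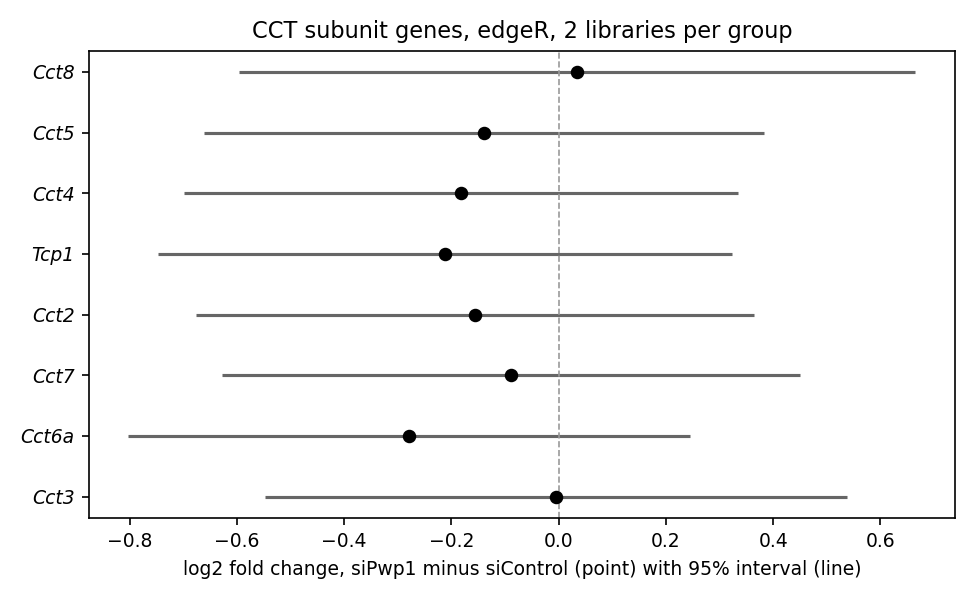
Log2 fold change of siPwp1 minus siControl (horizontal axis) for the 8 subunits from edgeR, with lines for the 95% intervals; n = 2 libraries per group. Every interval crosses the dashed line at 0, and the points lie between -0.28 and 0.03.

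The spread within a group was set beside the difference between groups. From replicate 1 to replicate 2 of siControl the log2 CPM differed by a median of 0.20 over the 8 subunits, from -0.08 for Cct6a to 0.61 for Cct8, and replicate 2 was the higher for 6 of 8. In siPwp1 the same differences ran from -0.09 to 0.11, with a median of -0.005 and replicate 2 higher for 4 of 8. The siControl libraries thus lay farther apart than the siPwp1 libraries in the median, though Cct2 and Cct6a differed little in either group. Among 677 other genes averaging 300 CPM or more, the median absolute difference between replicates was 0.32 in siControl and 0.25 in siPwp1, against 0.20 and 0.07 for the subunits. The median absolute difference between groups was 0.15 for the subunits and 0.14 for those other genes. For Cct6a, Cct2 and Cct4 the absolute difference between groups exceeded both differences within groups. For Cct4 the margin was narrow, at -0.18 between groups beside 0.17 and 0.09 within them. The difference between groups draws on 2 libraries on each side and those within groups on single libraries. The share of all genes that meet this was not counted, so it is a description only.

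**Figure D4:**
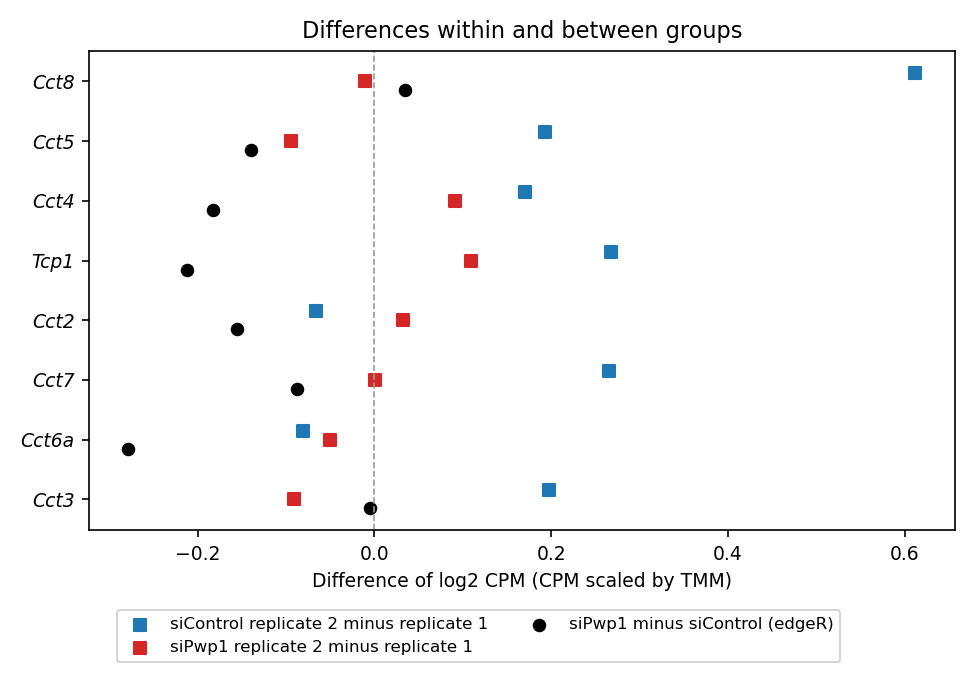
Difference of log2 CPM (horizontal axis) for each subunit between the replicates of siControl (blue squares), between the replicates of siPwp1 (red squares) and between the groups (black circles). The siControl replicates differ by 0.61 for Cct8, while the siPwp1 replicates differ by at most 0.11.

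Averaged over genes, the 8 subunits were highest in siControl replicate 2, at 0.16 above their mean log2 CPM, and at -0.04, -0.06 and -0.06 in siControl replicate 1 and siPwp1 replicates 1 and 2. Among 5151 other genes averaging 20 CPM or more, those nearest to this profile over the 4 libraries were Set, Mrpl16, Narfl, Nup50 and Dnm1l, with root mean square differences of 0.0119 to 0.0186 in log2 CPM. Set, a histone chaperone, had 2555 and 2953 CPM in the siControl pair and 2497 and 2479 CPM in the siPwp1 pair. The subunits themselves lay farther from their own mean, from 0.032 for Cct7 to 0.175 for Cct8. There were 15 other genes nearer to the mean profile than Cct7 and 1483 nearer than Cct8. With 4 libraries such likeness is a description.

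Genes that work with CCT were read from lists of its partners, clients and related chaperones, and 0 members of any list passed edgeR over all genes. Prefoldin, which delivers clients to CCT, had 6 of 6 genes tested and a median of 0.03 in log2 fold change. In CPM 1 of the 6 was higher without overlap and 0 lower, beside 14.7% and 14.1% of all genes tested. The most abundant prefoldin genes Pfdn2, Pfdn5 and Vbp1 had folds of 1.03, 1.01 and 1.10. Prefoldin transcripts summed to 1948 to 2392 TPM, and the highest was 1.61 to 3.66 times the lowest, a span that varied more between libraries than the 2.37 to 2.64 of CCT; this was not tested.

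Of 4 phosducin-like co-chaperone genes 3 were tested, and all 3 were lower in both siPwp1 libraries in CPM, beside 14.1% of all genes tested, at a median of -0.25, though Pdcl overlapped in TPM. Txndc9, known to dampen the ATP hydrolysis of CCT, averaged 660.9 ± 27.6 CPM in siControl against 556.3 ± 6.09 CPM in siPwp1 (SD, n = 2), a fold of 0.842 (edgeR adjusted p = 0.9998). Pdcl3 was at 178.1 ± 17.5 and 145.7 ± 15.4 CPM, and Pdcl, needed for G protein beta-gamma assembly, at 95.6 ± 1.42 and 91.1 ± 4.35 CPM. These differences in level were not called.

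Among clients, the actin genes showed large differences between replicates. The 6 actin genes, 3 of them tested, summed to 4783 and 1885 CPM in the siControl pair and 3098 and 1769 CPM in the siPwp1 pair, with Acta2, Actc1 and Actg2 listed at 0 in each library. Actg1 was at 2029 ± 1618 and 1323 ± 570.3 CPM, and Actb at 1305 ± 431.1 and 1110 ± 369 CPM. Actin was thus highest in siControl replicate 1, the library in which Cct8 was lowest. In the siPwp1 pair, where actin also differed, Cct8 was nearly level, at 1165 and 1156 CPM. The summed CPM of the 8 subunits (5279, 6249, 5295 and 5320) did not follow actin.

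Tubulins had 15 of 19 genes tested and a median of -0.07. Of the 15, 1 was lower without overlap and 0 higher, beside 14.1% and 14.7% of all genes tested. Tubb4b had a fold of 0.934, Tuba1c of 0.678 and Tuba1b of 0.779. The tubulin cofactors, which take folded tubulin on to the dimer, had a median of -0.02 over 6 genes. Of the 6, Tbcb was higher without overlap, beside 14.7% of all genes tested. The most abundant cofactor genes Tbca, Tbcb and Arl2 had folds of 0.873, 1.26 and 0.831. WD-repeat clients had 5 of 10 lower without overlap in CPM and 0 higher, beside 14.1% and 14.7% of all genes tested, with a median of -0.10. Of the 5, Ppp2r2a overlapped in TPM, and Gnb5 and Rptor were low, at 0.27 to 0.91 and 0.68 to 0.98 TPM. Gnb1, a G protein beta subunit and also among the 5, was at 188.8 ± 5.81 and 158.2 ± 5.80 CPM. Ppp2r2a, a phosphatase subunit, was at 135.6 ± 3.77 and 128.5 ± 3.37 CPM. Cdc20, an activator of the anaphase-promoting complex, overlapped between groups, at 168.1 ± 51.3 and 204.3 ± 26.7 CPM. Other reported clients had a median of -0.15 over 6 genes, with folds of 0.897 for Ccne1, 1.10 for Vhl and 0.960 for Trp53.

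Among other chaperonins and chaperonin-like genes the median was -0.35 over 7 genes. Of the 7, 2 were lower without overlap and 0 higher, beside 14.1% and 14.7% of all genes tested. Hspd1, the chaperonin of mitochondria, stood at 457.6 ± 26.4 and 321.9 ± 26.5 CPM, a fold of 0.704 (edgeR adjusted p = 0.9998). Its partner Hspe1 had a fold of 0.751 and Mkks, a chaperonin-like gene, of 0.786. The CCT subunits thus had folds of 0.824 to 1.02 beside 0.704 for Hspd1, and the difference between them was not tested. Heat shock factors and cytosolic heat shock genes had a median of -0.38 over 10 genes. Of the 10, 3 were lower without overlap, beside 14.1% of all genes tested. These were Hsf2, Hspa1a and Hspa1b, of which Hspa1a and Hspa1b were low, at 0.08 to 0.73 and 1.28 to 2.84 TPM. Hspa8 was at 6967 ± 76.2 and 6980 ± 137.5 CPM, Hsp90ab1 had a fold of 1.07, and Hsp90aa1 was at 12699 ± 6731 and 9188 ± 3262 CPM. The prefoldin-like and R2TP list, which holds a related assembly complex, had a median of 0.04 over 7 genes. Of the 7, 2 were higher and 1 lower without overlap, beside 14.7% and 14.1% of all genes tested. Pdrg1 of this list was at 235.8 ± 150.5 and 396.99 ± 55.4 CPM. Uxt and Ruvbl2 of this list had folds of 0.926 and 1.03.

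The core of the 20S proteasome, another complex of 14 listed subunit genes, had a median difference of -0.11 in log2. Of the 14, 1 was lower without overlap and 0 higher, beside 14.1% and 14.7% of all genes tested. Among the proteasome genes, Psma6, Psma2 and Psma7 had folds of 1.02, 0.833 and 0.962. Its highest transcript was 3.45 to 4.04 times its lowest in TPM. The coefficient of variation of TPM among its subunits was 35.4% to 37.7%, against 31.4% to 38.7% for CCT, so by this measure the transcript proportions of the complexes were spread to a similar degree.

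**Figure D5:**
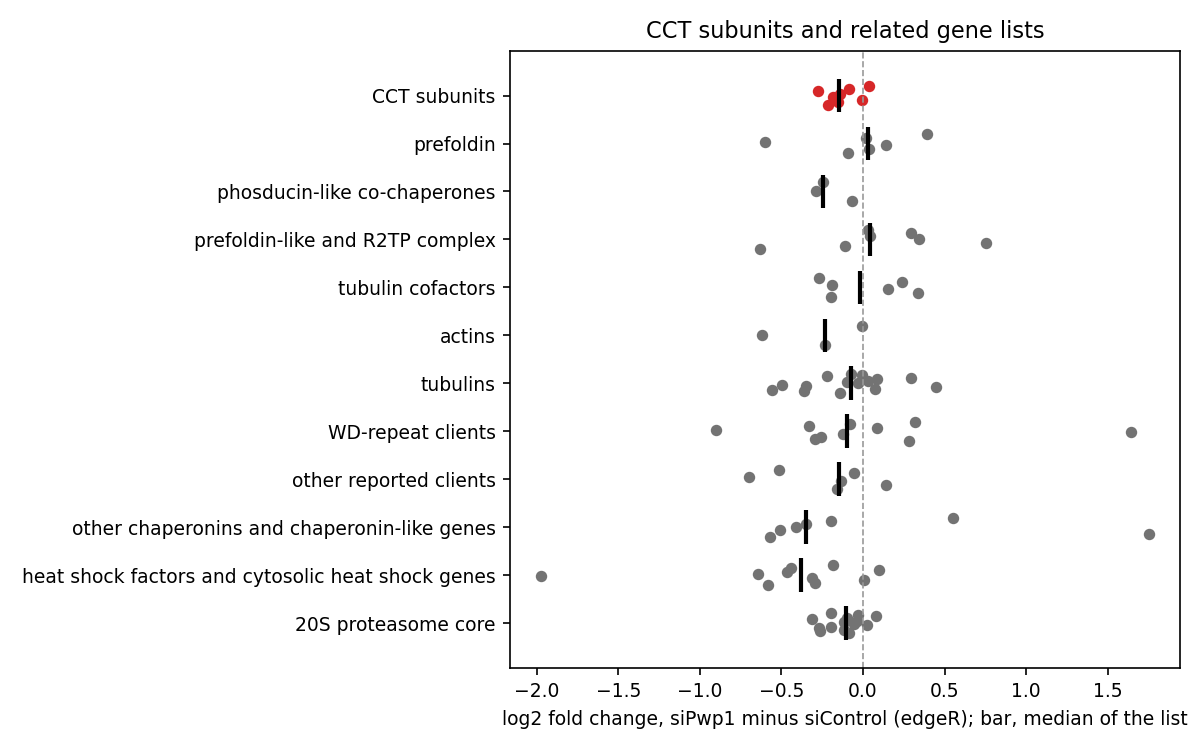
Log2 fold change of siPwp1 minus siControl (horizontal axis) for each tested gene of the CCT subunits (red points) and of the lists of related genes (grey points), with black bars for the median of each list. The CCT subunits span -0.28 to 0.03 and have a median of -0.15, and 0 of the genes shown passed edgeR over all genes.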

How the data were processed

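RNA-seq libraries were made from polyA RNA with a SMART-Seq v4 PLUS kit, per the labels' protocols. Per the submitters' processing notes the build was mm10, with RSEM 1.3.3 and STAR 2.7.10. The annotation release, trimming and use of strand were not given in the sources used here. Every deposited file lists the expected count of every gene, not normalized, per the file headers. TPM, scaled per length within each library, and FPKM were made by the authors, per the file headers. RSEM divides reads that fit several genes among them.

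Expected counts were rounded and tested with edgeR 4.0.16 (quasi-likelihood, group as the single term) in R 4.3.3, after filterByExpr (minimum count 10; 13585 genes kept) and TMM scaling. Two-sided p-values were Benjamini-Hochberg adjusted over all genes tested (threshold 0.05). The SE divides the log2 fold change by the root of F, and 95% intervals use the test's degrees of freedom. Levels between genes are compared in TPM; shares used TPM, and FPKM served as an alternative. Libraries that do not overlap means both siPwp1 values above, or both below, both siControl values. The fit was tested on simulated data.

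The members and lists were chosen with earlier results of these data known. Named genes are the 8 subunits, Pwp1, Cct6b, the 3 members of each list with the highest mean TPM, and the 5 nearest profiles (mean of 20 CPM or more); neighbouring genes were added after their values were seen. Alternatives were other filters, DESeq2 1.42.0 size factors and Wald test, limma 3.58.1 on log2(TPM + 1), a replicate block, leaving out each library, and a threshold of 0.1. Promoter windows are from RefSeq (GRCm38.p6). Of the 8 subunits 7 matched.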

Additional observations from a re-analysis of the deposited data

How the results depend on the processing

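The number of subunits called was 0 under each of the 11 alternatives, and their median log2 fold change, -0.15, moved by less than the spread between replicates (SD 0.116), to -0.24 to -0.06 with 1 library left out and to -0.16 to -0.11 under the others. Genes called in all, 0 at first, numbered 106 with no filter on low counts, 44 with DESeq2 and 6 to 142 with 1 library left out; the cause was not tested. Cct3, near 0, turned to 0.035 with the stricter filter, 0.0017 with DESeq2 size factors in edgeR, 0.0017 with DESeq2 and 0.014 with limma on log2(TPM + 1). With 1 library left out the log2 fold change was -0.10 to 0.10 for Cct3, -0.21 to 0.049 for Cct7 and -0.24 to 0.37 for Cct8. The ratio of the highest to the lowest mean subunit level, 2.37 in TPM, was 3.00 in expected counts, which are not per length, and 2.27 to 2.52 with 1 library left out. The number of subunits lower in both siPwp1 libraries was 4 with CPM and 2 with TPM, an alternative chosen after seeing the data. For TPM the share of all genes was not counted. With the replicate number as a block edgeR called 80 genes and 0 subunits, with a median of -0.15; the replicate differences of the groups correlated at 0.317 across all genes tested and at 0.627 across the 5159 averaging 20 CPM or more, the 8 subunits among them, and the samples are known to share only a number. A lone library left in a group takes its spread from the other group. Counting error was at most 0.981% of a subunit's count; the spread between 2 libraries per group sets the width of the intervals.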
